A study of Mus musculus with 6 samples.

Results

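The Ifitm family comprises small interferon-induced membrane proteins, and its 6 mouse genes on the array, Ifitm1, Ifitm2, Ifitm3, Ifitm5, Ifitm6 and Ifitm7, are described here out of 34650 gene names. Members were every probe, other than controls, that carries one of these gene names, which gave 8 probes. The family was chosen by the log2 signals of the KO and WT arrays, with those results known, so the differences between genotypes are given for its members as a description, without p-values. The cells came from the bone marrow of C57BL/6 mice and were sorted as CD48-KSL cells. These cells lack CD48 and lineage markers and carry c-Kit and Sca-1, a gate for haematopoietic stem cells and early progenitors. There were 3 samples labelled Spred1 KO and 3 labelled wildtype, each hybridised to its own 1-colour array with Cy3. The product of Spred1 restrains the Ras-ERK cascade. Age, sex and the deleted part of Spred1 are not given in the sources used here, nor is it stated that the samples came from separate animals. The spread between samples may therefore be technical in part.

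Ifitm1, Ifitm2 and Ifitm3 sit in cell and endosomal membranes, where they hinder the fusion of enveloped viruses with the host cell. Interferons induce them in many cell types through transcription factors that bind interferon-stimulated response elements (ISRE). Stem cells, including blood stem cells, are known to keep some interferon-stimulated genes on without an interferon signal. Ifitm5 is a bone gene, expressed in mineralising osteoblasts. The functions of Ifitm6 and Ifitm7 are less well described.

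The sequences that bear on the reading of the signals come first, each written 5′ to 3′. Both Ifitm1 probes lie on chromosome 7 and share a run of 54 bases. The last 30 bases of each are shown to make the difference between them visible, with the bases outside the shared run in capitals.
Ifitm1 A_55_P2146254: ctcaataaagtgcacgtgctgtgaCTTTCT
Ifitm1 A_55_P2087265: actcaataaagtgcacgtgctgtgaAAAAA
Both probes therefore read the same stretch of the same transcript, and their 2 values are not independent measurements of Ifitm1.

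The Ifitm2 probe has close relatives elsewhere on the array, so its whole sequence is shown beside theirs. In the unnamed probe on chromosome X, capitals mark the 3 of 60 bases that differ from the Ifitm2 probe. In the long noncoding RNA probes on chromosomes 14 and 5, capitals mark the runs of 23 and 20 bases shared with it.
Ifitm2 A_55_P1998578: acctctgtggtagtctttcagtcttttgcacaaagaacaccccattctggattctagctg
Unnamed A_55_P1975843: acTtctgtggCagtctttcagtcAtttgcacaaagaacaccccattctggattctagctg
Chromosome 14 A_30_P01026835: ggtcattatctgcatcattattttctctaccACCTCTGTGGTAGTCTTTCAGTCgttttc
Chromosome 5 A_30_P01025234: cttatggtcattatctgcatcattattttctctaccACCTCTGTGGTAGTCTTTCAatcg
An RNA matching the chromosome X probe could bind the Ifitm2 probe as well, so which transcript the Ifitm2 signal comes from is uncertain.

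One of the 2 Ifitm7 probes ends in a repeat, whose 30 bases are shown in capitals.
Ifitm7 A_55_P2097161: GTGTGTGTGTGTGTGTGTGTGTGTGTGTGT
It shared a run of at least 20 bases with 51 other probes. The array held 49 probes with at least 10 TG units in a row, this one among them. All 49 were well above background by the rule used for the fit, whereas 49.9% of all probes were. Their median difference was 0.065 on the log2 scale. The other Ifitm7 probe, A_55_P1955876, shared 20 bases with 1 probe, for Gal3st2. The probes of Ifitm1, Ifitm3, Ifitm5 and Ifitm6 shared no run of 20 bases with a probe of another gene.

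On mouse genome build mm9, the probes of 5 members lie on chromosome 7 within 65.8 kb. The Ifitm5 probe is at chr7:148135949-148136008 and the Ifitm2 probe at chr7:148140881-148140940. The Ifitm1 probe A_55_P2146254 is at chr7:148155659-148155718 and A_55_P2087265 at chr7:148155658-148155717. The Ifitm3 probe is at chr7:148195591-148195650 and the Ifitm6 probe at chr7:148201714-148201773. Ifitm1 is on the plus strand and the other 4 are on the minus strand. Ifitm7 lies apart, on the minus strand of chromosome 16, with A_55_P1955876 at chr16:13981795-13981854 and A_55_P2097161 at chr16:13982912-13982971. Spred1 is on chromosome 2.

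RefSeq promoters, from 250 bases before to 50 bases after the gene's start on build GRCm38.p6, were found for all 6 members. Ifitm2 and Ifitm3 held an ISRE match (GAAA, any 2 bases, GAAA), searched on both strands, and the other 4 members did not. Such matches occurred in 3.44% of 32851 promoters, and in 20 of 43 promoters (46.5%) of 38 interferon-stimulated genes on a list of antiviral genes. The windows below run from 120 bases before the start to 29 bases after it, the start counted as 0. Capitals mark ISRE matches in Ifitm2 and Ifitm3 and the letters TATAAA in Ifitm6. Ifitm1 is shown because it had neither.
Ifitm1 promoter: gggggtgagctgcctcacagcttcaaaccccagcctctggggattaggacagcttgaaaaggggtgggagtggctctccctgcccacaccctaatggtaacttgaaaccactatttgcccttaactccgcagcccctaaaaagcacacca
Ifitm2 promoter: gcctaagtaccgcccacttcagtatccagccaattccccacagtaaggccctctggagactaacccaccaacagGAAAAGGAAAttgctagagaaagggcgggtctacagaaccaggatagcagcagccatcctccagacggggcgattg
Ifitm3 promoter: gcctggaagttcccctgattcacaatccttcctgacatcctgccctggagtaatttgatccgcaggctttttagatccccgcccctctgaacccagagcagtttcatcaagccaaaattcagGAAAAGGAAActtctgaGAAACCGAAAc
Ifitm6 promoter: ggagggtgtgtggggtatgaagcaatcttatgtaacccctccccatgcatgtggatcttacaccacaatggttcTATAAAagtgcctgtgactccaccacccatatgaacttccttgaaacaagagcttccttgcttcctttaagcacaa
The windows are chr7:140967956-140968105 for Ifitm1, on the plus strand, and chr7:140955932-140956081 for Ifitm2, chr7:141010715-141010864 for Ifitm3 and chr7:141016863-141017012 for Ifitm6, on the minus strand. The Ifitm2 match ran from -46 to -37. Ifitm3 had matches from 2 to 11 and from 19 to 28. The letters TTCNNNGAA, which read the same on both strands and belong to gamma-interferon-activated sites, were in 8.3% of all promoters. They lay from 13 to 21 in Ifitm3, overlapping its second ISRE match, and from -10 to -2 in Ifitm6. TATAAA, in 13.6% of all promoters, lay from -46 to -41 in Ifitm6 and on the opposite strand from -175 to -170 in Ifitm2. These are matches of letters in a window, not sites shown to be bound.

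Signals are given on the log2 scale relative to each array's own 75th percentile, which is 0. Genotypes are compared only within a probe, apart from a sum over neutrophil markers, in which bright probes weigh most. Brightest and dim refer to probe signal. The 75th percentile ran from 346 to 382 intensity units on the KO arrays and from 369 to 417 on the WT arrays, and no spot was saturated. The arrays lay on 2 slides, with replicates 1 and 2 of both genotypes on slide 1 and replicate 3 of both on slide 2. The Spred1 probes did not move together. A_55_P2079430 averaged 0.16 ± 0.11 in KO and 1.15 ± 0.051 in WT cells, and A_55_P2079425 averaged 0.64 ± 0.12 in KO and 0.78 ± 0.066 in WT cells (SD, n = 3 each). A_55_P2090045 averaged 0.030 ± 0.19 in KO and -2.41 ± 0.24 in WT cells. Without the position of the deletion they are no check of the genotype. Of the gate genes, Kit was 5.01 in KO and 5.10 in WT cells, Ly6a (Sca-1) was 4.52 in KO and 4.45 in WT cells, and Cd48 was -0.074 in KO and -0.19 in WT cells, all with overlapping genotypes. WT replicate 1 stood apart from the other 5 arrays in myeloid transcripts, which bears on Ifitm6 below. Counts of genes lowest on this array, here and below, lack the share over all genes and are a description only. Of the measured markers, 4 of 5 for B cells and 7 of 11 for erythroid cells were also lowest on WT replicate 1. The count was 1 of 6 for T and NK cells and 1 of 5 for dendritic cells. It was 0 of 9 for megakaryocytes and platelets and 3 of 30 for stem cell genes.

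Ifitm1, which restricts viruses mainly at the cell surface, had the lowest KO signal relative to WT of all members in the fit with all 6 arrays; without WT replicate 1, Ifitm6 lay lower, at -0.59. In intensity units before scaling, A_55_P2146254 read 37576, 43375 and 41101 on the KO arrays, against 59841, 57433 and 54379 on the WT arrays. After scaling it read 6.74, 6.83 and 6.89 in KO cells, against 7.16, 7.15 and 7.20 in WT cells. All 3 KO arrays lay below all 3 WT arrays. The means were 6.82 ± 0.075 in KO and 7.17 ± 0.026 in WT cells (SD, n = 3 each). The difference was -0.35 ± 0.086 (SE), a KO signal of 78.4% of WT.

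The second Ifitm1 probe, A_55_P2087265, read 6.63, 6.75 and 6.75 in KO cells, against 7.05, 7.10 and 7.09 in WT cells. Again the genotypes did not overlap, and the difference was -0.37 ± 0.085 (SE), or 77.3% of WT. The difference on slide 1 was -0.37 for A_55_P2146254 and -0.38 for A_55_P2087265, and on slide 2 it was -0.31 and -0.35. The replicate spread was small. A pooled SD below that of the Ifitm1 probes was found in 4.91% (A_55_P2146254) and 4.45% (A_55_P2087265) of the 27796 probes kept. The size of the difference was not rare, since 12.7% of these probes differed by more than A_55_P2146254 in either direction and 4.42% lay further below WT. In sorted bulk cells, fewer cells carrying a transcript and less of it per cell cannot be told apart.

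**Figure D1:**
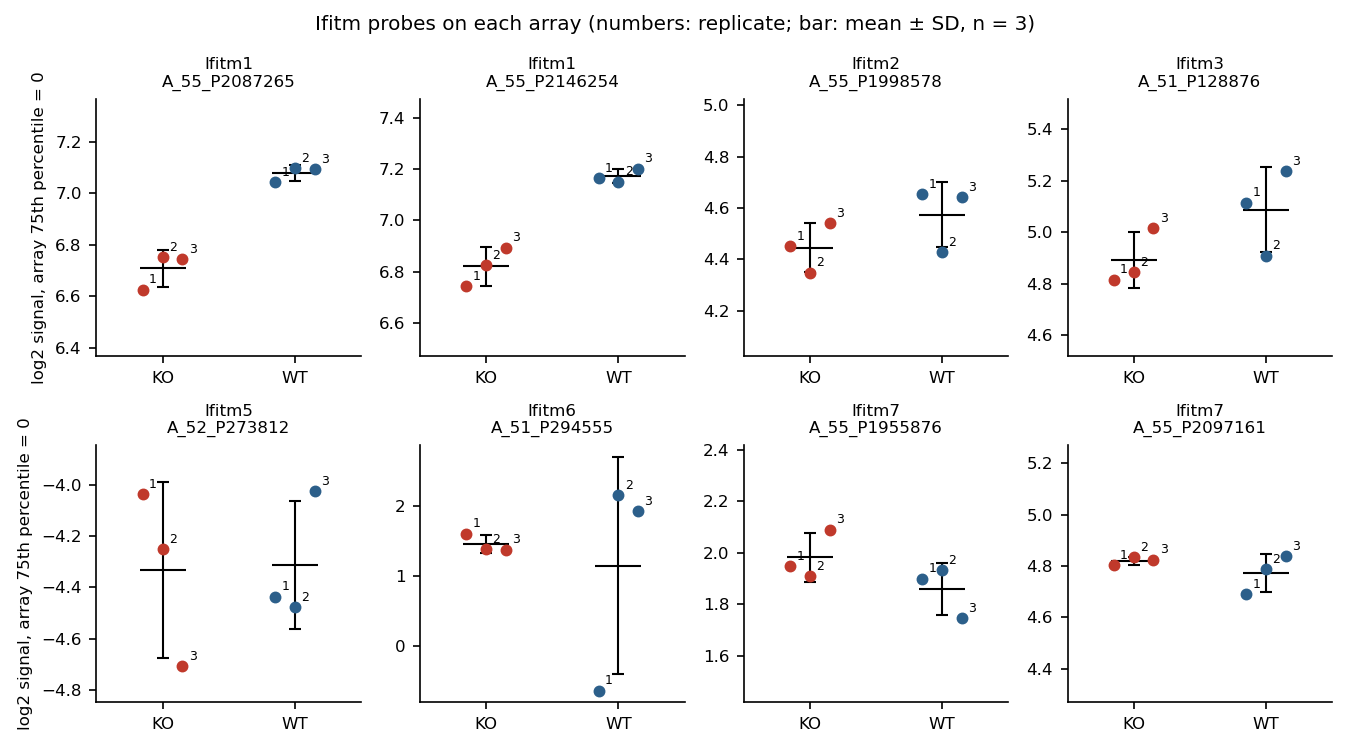
Signals of the 8 Ifitm probes on each array, as log2 intensity with the array's 75th percentile at 0 (vertical axes, each panel with its own range), for KO (left) and WT (right). Numbers are replicates and black bars are mean ± SD (n = 3). The Ifitm1 probes separate the genotypes, Ifitm2 and Ifitm3 overlap, and WT replicate 1 lies at -0.65 for Ifitm6 against 1.93 and 2.14 on the other WT arrays.

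Ifitm3, which acts in late endosomes and is the best studied restrictor of influenza virus in the family, was printed in 10 spots per array. Its probe ends in the bases below, which match no other probe on the array over 20 bases.
Ifitm3 A_51_P128876: aggattccgacttccggtcctgaagtgctt
The spot averages were 4.82, 4.85 and 5.02 in KO cells, against 5.12, 4.91 and 5.24 in WT cells. KO replicate 3 lay above WT replicate 2, so the genotypes overlapped. The difference was -0.20 ± 0.12 (SE), or 87.3% of WT, with -0.18 on slide 1 and -0.22 on slide 2. Within an array the spots had an SD of 0.030 to 0.074, so the SE of an array's mean was at most 0.023. The SD between arrays was 0.11 in KO and 0.17 in WT cells. One spot, on WT replicate 2, was left out as an outlier of the scanner software.

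**Figure D2:**
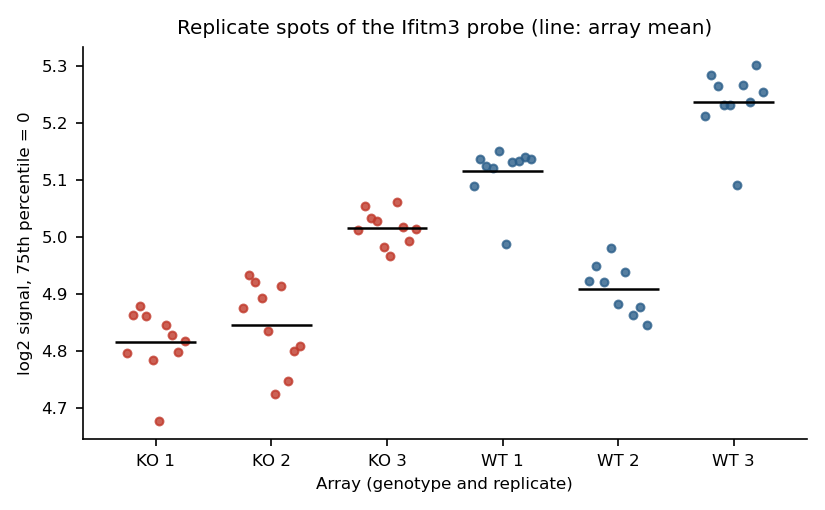
Replicate spots of the Ifitm3 probe on each array, as log2 intensity with the array's 75th percentile at 0 (vertical axis), KO arrays in red on the left and WT arrays in blue on the right. Each point is a spot, 10 per array and 9 on WT replicate 2, and lines are array means. Spots of KO replicate 3, with a mean of 5.02, lie above the mean of WT replicate 2 at 4.91.

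Ifitm2, a close relative of Ifitm3 that also acts in endosomes, read 4.45, 4.35 and 4.54 in KO cells, against 4.65, 4.43 and 4.64 in WT cells. Both genotypes were lowest on replicate 2, and their ranges overlapped. The difference was -0.13 ± 0.11 (SE), or 91.5% of WT, with -0.14 on slide 1 and -0.10 on slide 2. The look-alike probes printed above had much the same differences. The unnamed probe on chromosome X (chrX:57679257-57679316) differed by -0.14, the probe on chromosome 14 by -0.17 and the probe on chromosome 5 by -0.17, all with overlapping genotypes.

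Ifitm5 was not well above background on any KO array and was above it on 1 WT array, replicate 3. It read -4.04, -4.25 and -4.71 in KO cells, against -4.44, -4.48 and -4.02 in WT cells, and no fold is given. Of 10 osteoblast markers, 5 were well above background on none of the 6 arrays, among them Bglap (osteocalcin), Ibsp and Sp7, a transcription factor of the bone lineage. Col1a1 was well above it on 2 KO arrays and 1 WT array, Bglap2 on 1 KO array and Alpl on 1 WT array. The other 2 markers were kept in the fit, and both have roles outside bone. Runx2 read -0.22, -0.10 and -0.21 in KO cells, against -0.69, -0.45 and -0.25 in WT cells, and Spp1 averaged -4.01 in KO and -3.67 in WT cells. Spp1, well above background on 2 KO and 3 WT arrays, was kept through the genotype in which it read higher.

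Ifitm6 was the member with the largest spread. It read 1.60, 1.37 and 1.37 in KO cells, against -0.65, 2.14 and 1.93 in WT cells. The KO arrays lay close together, below WT replicates 2 and 3 and above WT replicate 1. The means were 1.45 ± 0.13 in KO and 1.14 ± 1.55 in WT cells (SD, n = 3 each), a difference of 0.31 ± 0.69 (SE). WT replicate 1 was 2.68 below the mean of the other WT arrays, a 6.41-fold lower signal. Without it the difference was -0.59. The slides gave opposite signs, 0.74 on slide 1, which holds WT replicate 1, and -0.56 on slide 2. A smaller pooled SD was found in 99.8% of the probes kept.

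The 3 genes most like Ifitm6 over the 6 arrays were Ltf, which encodes the neutrophil granule protein lactotransferrin (Pearson r = 0.997), Itgb2l (0.997) and Igsf6 (0.996). Of 14 neutrophil markers, 13 were measured, and 12 of these were lowest on WT replicate 1. The exception was Itgam, the integrin subunit CD11b. Ltf read 3.66, 3.43 and 3.63 in KO cells, against 1.54, 4.28 and 4.10 in WT cells. S100a9, a subunit of calprotectin and the brightest marker, read 7.90, 7.56 and 7.82 in KO cells, against 5.80, 8.12 and 8.04 in WT cells. The markers' summed signal, as log2, was 8.49 to 8.86 on the KO arrays, against 7.01, 9.06 and 8.97 on the WT arrays. The median marker was 2.38 below the other WT arrays on WT replicate 1. In 8 of the 13 markers all KO arrays lay below WT replicates 2 and 3, as in Ifitm6, and the median difference was 0.27 with WT replicate 1 and -0.43 without it. The share of all genes with this order is not given, and WT replicate 1 was set aside for these same values. Nothing is therefore read from the 8. None of the 13 passed limma's adjusted threshold over all genes or an unadjusted p of 0.05. Of 5 measured markers of primary granules, which form in immature myeloid cells, 4 were lowest on WT replicate 1, the exception being Prtn3. The peroxidase gene Mpo read 3.79, 3.29 and 4.02 in KO cells, against 1.21, 4.48 and 4.30 in WT cells. Ctsg averaged 1.41 in KO and 0.75 in WT cells, with -2.15 on WT replicate 1, whereas Prtn3 was lowest on KO replicate 1, at 2.28, against 2.70 on WT replicate 1. The part of other cells in the Ifitm6 signal was not tested.

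**Figure D3:**
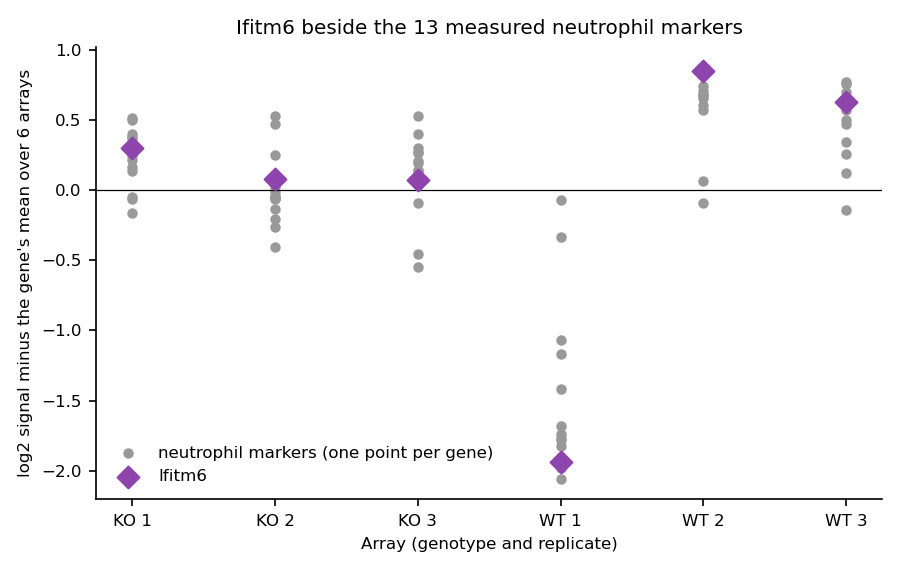
Ifitm6 (purple diamonds) and the 13 measured neutrophil markers (grey points, 1 per gene) on each array, KO on the left, as log2 signal minus the gene's mean over the 6 arrays (vertical axis). Ifitm6 and 12 of 13 markers are lowest on WT replicate 1.

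Ifitm7 was read by A_55_P1955876 at 1.95, 1.91 and 2.09 in KO cells, against 1.90, 1.93 and 1.74 in WT cells. The genotypes overlapped, with a difference of 0.12 ± 0.099 (SE), or 0.012 on slide 1 and 0.35 on slide 2. The repeat-ended probe A_55_P2097161 read 4.80, 4.83 and 4.83 in KO cells, against 4.69, 4.79 and 4.84 in WT cells. Its difference was 0.049 ± 0.085 (SE). Neither probe separated the genotypes. Both differences were below 0 before the arrays were scaled, at -0.020 and -0.095, where the median of all probes was -0.15.

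Of the 8 member probes, 7 probes of 5 genes entered limma's fit over 27796 probes. Of these, 4 were lower and 3 higher in KO cells, with a median of -0.13 beside -0.0038 over all probes. All KO arrays lay below all WT arrays for 2 of the 7, both of Ifitm1, and this held for 9.58% of all probes, while 9.08% had all KO arrays above. None of the 7 passed limma's adjusted threshold of 0.05, which 0.0324% of all probes did (0.0216% higher and 0.0108% lower in KO). Nothing is read from these member counts, because the same contrast chose the family. Ifitm10, a related gene with 2 probes on chromosome 7, was well above background on none of the 6 arrays. Of 10 genes with the family's CD225 domain outside the members, Ifitm10 included, 2 were measured. Prrt2, a synaptic protein, differed by -0.26 ± 0.079 (SE), and Tmem91 by 0.20 ± 0.13 (SE). Neither passed over all genes, and Prrt2 was lower at an unadjusted p of 0.05.

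Proteins known to bind or modify Ifitm3 were examined as a list of 9, all measured. None passed over all 19604 genes, where limma called 0.0204% (0.0102% in each direction). At an unadjusted p of 0.05, 1 was lower, as were 5.24% of all genes. Values were lower in KO cells for 8 of 9, with a median of -0.10 beside -0.0085 over all genes. For 4 of the 9 all KO arrays lay below all WT arrays, beside 10.2% of all genes, and for 0 above, beside 9.37%. Cd9, a tetraspanin, read 2.56, 2.84 and 2.57 in KO cells, against 3.07, 2.90 and 2.90 in WT cells, a difference of -0.30 ± 0.11 (SE, limma adjusted p = 0.394). Nedd4, a ubiquitin ligase that marks IFITM3 for turnover in human and mouse cells, differed by -0.24 ± 0.12 (SE), and Kdm1a, a lysine demethylase, by -0.13 ± 0.074 (SE). Setd7, the methyltransferase opposing it on IFITM3 in human cells, differed by 0.0055 ± 0.084 (SE).

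Other interferon-stimulated genes lay on both sides of 0. Of 52 antiviral genes on the list, 51 were measured, 29 with lower and 22 with higher values in KO cells, and the median was -0.019. This median was near 0 and changed sign with the arrays used, from -0.090 without WT replicate 1, on which 24 of the 51 were lowest, to 0.066 without WT replicate 3. No gene of the list passed limma's adjusted threshold or an unadjusted p of 0.05. In 5 of them all KO arrays lay below all WT arrays, beside 10.2% of all genes, and in 2 above, beside 9.37%. Isg15, the ubiquitin-like modifier, differed by -0.00063 ± 0.21 (SE). Parp12 differed by -0.19 ± 0.083 (SE) and Trim21, an antibody receptor in the cytosol, by -0.16 ± 0.080 (SE). Ifi27l2a had a higher value, 2.63 in KO and 2.19 in WT cells, with overlapping genotypes.

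Interferon receptors and signalling genes had 21 of 23 measured, 12 with higher and 9 with lower values, a median of 0.013 and no gene that passed. At an unadjusted p of 0.05, 1 was higher, as were 6.96% of all genes. Among the receptor subunits, Ifngr1 read 4.16, 4.21 and 4.43 in KO cells, against 3.79, 4.01 and 3.97 in WT cells. Its KO arrays all lay above its WT arrays, with a difference of 0.34 ± 0.11 (SE, limma adjusted p = 0.374). Its partner Ifngr2 differed by -0.082 ± 0.089 (SE), and the type I receptor subunits Ifnar1 and Ifnar2 by 0.097 ± 0.086 and 0.0029 ± 0.088 (SE). Socs1, a feedback inhibitor of interferon signalling, differed by -0.27 ± 0.12 (SE), and Irf1, a transcription factor induced by interferon gamma, by 0.18 ± 0.097 (SE). Of 15 interferon genes on the list, 13 were on the array and 6 were measured. All 6 had higher values in KO cells, with a median of 0.30. None passed, and 2 were higher at an unadjusted p of 0.05. They were dim. Ifna12, the one with the smallest p, averaged -3.71 in KO and -4.23 in WT cells. Ifna12 and Ifna5 were well above background on 3 KO but only 2 WT arrays. The filter thus kept these genes through the genotype in which they read higher, and nothing is read from the shared direction. Ifnl3 averaged -2.30 in KO and -2.71 in WT cells, and Ifnab -2.87 in KO and -3.14 in WT cells. The alpha interferons are near-identical copies, so the gene behind each of these signals is uncertain.

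Genes known for marking haematopoietic stem cells were listed apart from Ifitm1. All 30 were measured, 21 with lower and 9 with higher values in KO cells, and the median was -0.095. None passed over all genes, and 5 were lower at an unadjusted p of 0.05, beside 5.24% of all genes. In 7 all KO arrays lay below all WT arrays, beside 10.2% of all genes, and in 0 above, beside 9.37%. Esam, an adhesion molecule of these cells, read 2.68, 2.97 and 2.76 in KO cells, against 3.09, 3.22 and 3.39 in WT cells. It differed by -0.43 ± 0.12 (SE, limma adjusted p = 0.366). Vwf differed by -0.31 ± 0.11 (SE) and Trim47 by -0.27 ± 0.095 (SE). These genes were named for their small p and do not stand for the list. Among the 9 with higher values, Hlf differed by 0.21 ± 0.12 (SE) and Mecom by 0.25 ± 0.15 (SE), both with overlapping genotypes.

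**Figure D4:**
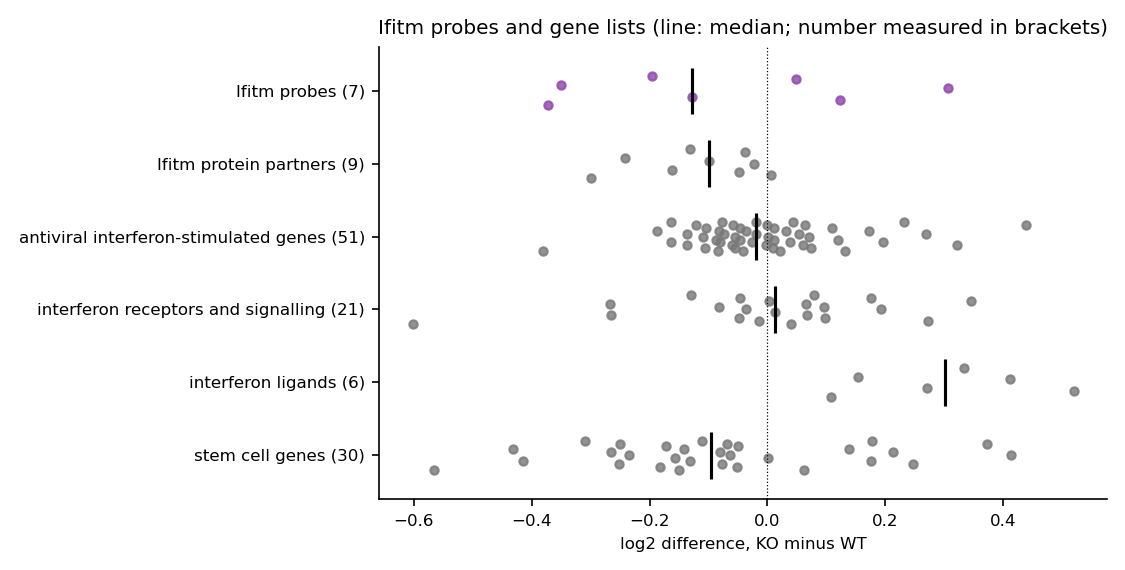
Differences between genotypes on the log2 scale, KO minus WT (horizontal axis), for the 7 Ifitm probes in the fit (purple) and for the measured genes of 5 lists (grey, the number measured in brackets). Black lines are medians, -0.13 for the Ifitm probes, -0.019 for antiviral interferon-stimulated genes and 0.30 for interferon ligands.

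Genes on chromosome 7 within 200 kb of the Ifitm probes showed no shared direction. Of 25 with probes, 16 were measured, 8 with lower and 8 with higher values in KO cells, and none passed limma's threshold. The differences ran from -0.40 (B4galnt4) to 0.21 (Odf3). The nearest measured genes were Athl1, at 0.12 ± 0.11 (SE), and Psmd13, a subunit of the proteasome, at -0.13 ± 0.13 (SE), on the Ifitm5 side, and B4galnt4, a glycosyltransferase gene, at -0.40 ± 0.17 (SE), on the Ifitm6 side. All 3 had overlapping genotypes. In 2 of the 16 all KO arrays lay below all WT arrays, a share near the 10.2% of all genes. Rnh1, the ribonuclease inhibitor, read 1.60, 1.85 and 1.81 in KO cells, against 2.03, 2.01 and 2.18 in WT cells. Its difference was -0.32 ± 0.10 (SE), and that of Ptdss2, a phosphatidylserine synthase, was -0.25 ± 0.10 (SE). Hras, a GTPase of the Ras family, differed by -0.29 ± 0.12 (SE) with overlapping genotypes.

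**Figure D5:**
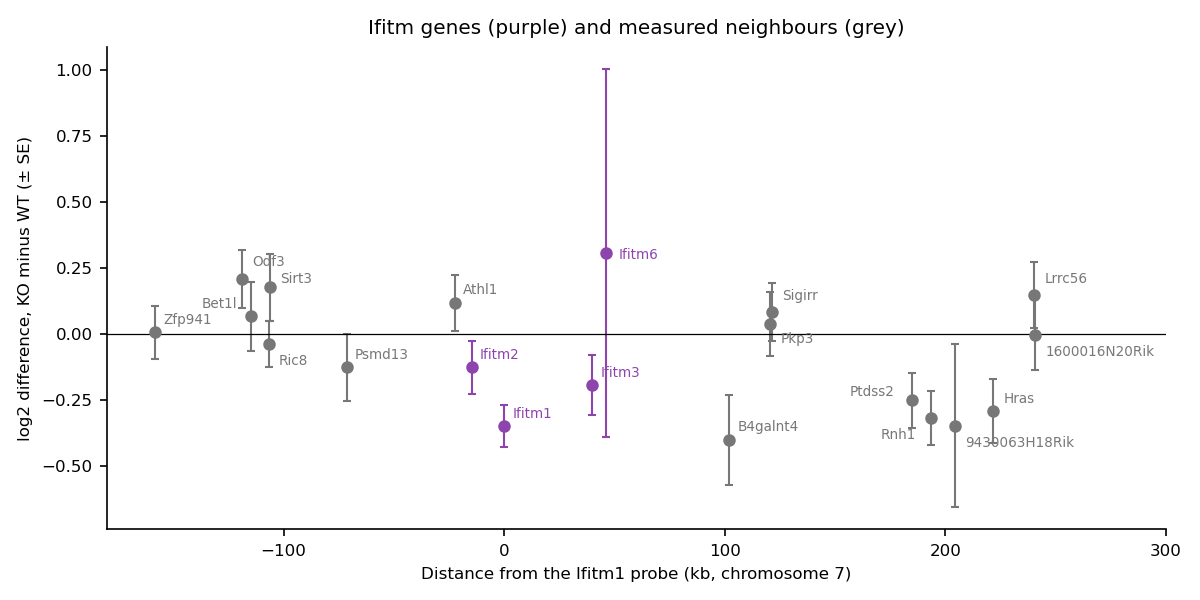
Difference between genotypes on the log2 scale, KO minus WT with its SE (vertical axis), against the distance from the Ifitm1 probe in kb along chromosome 7 (horizontal axis). Each Ifitm gene in the fit (purple) and measured neighbour (grey) is shown by its brightest probe. Neighbours lie on both sides of 0, from -0.40 for B4galnt4 to 0.21 for Odf3.

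The transcripts most like each member over the 6 arrays were taken from 18752 genes well above background on all of these arrays. Ifitm1 was most like Srprb, a subunit of the signal recognition particle receptor (Pearson r = 0.992), the DNA ligase gene Lig4 (0.99) and an unnamed probe on chromosome 17 (0.989). Srprb averaged -1.76 in KO and -1.20 in WT cells. Ifitm2 was most like Yme1l1 (0.99), Txndc5 (0.988) and the predicted gene LOC102641648 (0.986). Ifitm3 was most like Nt5m (0.997), Zfp41 (0.994) and the chaperone gene Calr (0.991), and Ifitm7, by its repeat-ended probe, was most like Ung (0.994), Gm10653 (0.99) and Ssu72 (0.99). No gene was named for more than 1 member. Between 256 and 324 genes had an r above 0.9 with each member. Only a few of these are named, so the lack of overlap cannot show whether the members differ in the transcripts that follow them. The 6 arrays share genotypes and slides, so these names are a description only.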

How the data were processed

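The authors' scanner files hold intensity per spot from Agilent Feature Extraction 10.7.3.1, already background-corrected and detrended, per the file headers. Flags mark outlier, saturated and well-above-background spots as other, non-measurement values, per the file headers. The authors' deposited value table gives these intensity values on a linear scale after division by an array constant of 304 to 368.

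Each array had 59305 spots other than controls, making 55681 probes. Control and outlier spots (92 to 155 per array) were left out, spots of 1 probe were averaged, and log2 intensity minus the array's 75th percentile was used. A probe was kept where either genotype had it well above background on each of its 3 arrays (27796 probes). For gene lists, the brightest probe stood for a gene (19604 genes). KO was compared with WT on all 6 arrays with limma 3.58.1 in R 4.3.3 (lmFit, eBayes, Benjamini-Hochberg adjustment). Errors are SD between arrays or SE of that fit. The number of arrays limits the precision. On simulated data for 27796 probes, limma recovered 26% of 1.5-fold and 74% of 2-fold changes. The simulation drew independent normal values with planted changes of 1.5-fold to 8-fold. Recovery depends on how many changes are planted, so these shares need not hold for the real contrast.

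Members and lists were chosen with earlier results of these data known. Named genes are all members, Ifitm10, measured neighbours within 200 kb, list members that passed or else the 3 of smallest p, interferon receptors, gate genes, the brightest markers of other cells and the 3 genes most like each member. Isg15, Setd7, Itgam, Hlf, Mecom and the osteoblast markers outside the fit were named after their values were seen. The labels do not say that numbers pair the samples, so they were treated as unpaired. Deviations of same-numbered samples, which share a slide, correlated at -0.018, 0.143 and 0.0836. Those of other pairs ran from -0.237 to 0.178. These few values cannot decide whether samples are paired. Alternatives changed scaling, background, filter, slide or replicate block, probe choice and single arrays.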

Additional observations from a re-analysis of the deposited data

How the results depend on the processing

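Ifitm1 kept a lower KO signal on both probes under all 14 alternatives, from -0.49 to -0.31 for A_55_P2146254 and from -0.51 to -0.33 for A_55_P2087265. Most of these alternatives could not have reversed Ifitm1. The slide block and the replicate block could not change a difference, because each block holds equal numbers of both genotypes. All KO arrays lay below all WT arrays for both probes, so leaving out 1 array or taking 1 slide could not change the sign. The authors' table holds the same intensities divided by an array constant. Scaling and background were the settings left that could have changed the direction. Ifitm2 (-0.27 to -0.079) and Ifitm3 (-0.34 to -0.12) also kept their direction. The lowest values came without scaling (-0.49 and -0.51 for Ifitm1, -0.27 for Ifitm2, -0.34 for Ifitm3), where the median of all probes was -0.15. Without scaling the Ifitm7 probes turned to -0.020 and -0.095 and the median of interferon receptors and signalling genes to -0.13. Within a slide, Ifitm7 A_55_P1955876 was 0.012 and 0.35, A_55_P2097161 was -0.012 on slide 2, and the signals of Ifitm5, well above background on 1 array only and so no measure of change, differed by 0.31 on slide 1 and -0.68 on slide 2. The median of antiviral genes was -0.16 without scaling and -0.090 to 0.066 with 1 array left out, and that of stem cell genes was -0.24 without scaling and -0.060 on slide 2. Ifitm6 ran from -0.59 without WT replicate 1 to 0.81.

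Over all probes limma called 6 higher and 3 lower in KO, and over all genes 2 and 2. Without scaling these were 3 probes higher and 2 lower, and 1 gene each way (592 probes higher and 4536 lower at an unadjusted p of 0.05). With normexp they were 10 and 5 probes and 5 and 4 genes, and with the mean over a gene's probes 5 and 4 genes. Quantile normalization left 5 and 2 probes and 1 and 0 genes (1009 genes lower unadjusted). With probes well above background on all 6 arrays they were 3 and 0 probes and 1 and 0 genes (1329 probes and 1030 genes lower at an unadjusted p of 0.05). Without a filter 4 probes were higher and 0 lower, and 0 genes either way (1392 probes lower, 1635 genes higher and 991 lower unadjusted). Slide as a block left 4 and 2 probes and 2 and 1 genes. The replicate block and slide 1 alone gave 0 calls (the block had 1761 probes higher and 1150 lower unadjusted, slide 1 had 971 and 709, and over genes they had 1261 and 870, and 701 and 478). Leaving out 1 array gave 0 to 6 probes higher and 0 to 5 lower, and 0 to 5 genes higher and 0 to 2 lower. By design the replicate block could change only the SE of a member's difference, and whether the numbers pair the samples is not stated. The cause of the changes in these calls was not tested.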

Other observations

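An unnamed probe inside the Ifitm cluster, A_55_P2082880 at chr7:148141861-148141920 on mm9, was well above background on 1 array only. It read -6.14, -2.29 and -6.27 in KO cells, against -6.08, -6.23 and -5.25 in WT cells, and KO replicate 2 alone was above background, at an intensity of 78.

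Monocyte and macrophage markers, which include genes of other myeloid cells, had 18 of 20 measured, 15 with higher values in KO cells and a median of 0.27, and 15 were lowest on WT replicate 1. None passed limma's adjusted threshold over all genes, and 1 was higher at an unadjusted p of 0.05, beside 6.96% of all genes. Ccr2 and Cx3cr1, well above background on 3 KO but only 2 WT arrays, were kept through the genotype in which they read higher. No median without WT replicate 1 is given, so nothing is read from the direction. Erythroid markers had 11 of 13 measured, 7 of them lowest on WT replicate 1, and a median of -0.027.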
